A study of Mus musculus with 9 samples.

Results

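The genes described here are those of the class IIa histone deacetylases (Hdac4, Hdac5, Hdac7 and Hdac9), of Hdac3, the catalytic deacetylase of their corepressor complex, of the MEF2 transcription factors that they repress (Mef2a, Mef2c and Mef2d) and of Camk2d, a kinase that acts on them. They were taken by symbol from the platform annotation of the arrays. Of 10 symbols listed, 9 were found among the 20239 named genes, each with 1 probe set, and all 9 passed the filter on low values on all 9 arrays. The corepressor gene Ncor1 was not mapped by that annotation and was not analysed here. RNA was measured on Affymetrix arrays in whole hearts of male C57BL/6 mice, in 3 groups of 3 animals. The TAC-HDAC4-NT hearts came from mice that received an adeno-associated virus carrying the amino-terminal part of HDAC4 (amino acids 1 to 201, here HDAC4-NT) and then transaortic constriction (TAC), which narrows the aorta and loads the left ventricle with pressure. The TAC-luciferase hearts had the same surgery after a virus carrying luciferase, a control protein. The sham-luciferase hearts had the luciferase virus and surgery without constriction. All 9 mice therefore carried a virus, given at 8 weeks of age, with an MLC (myosin light chain) promoter, which drives the cargo in heart muscle cells. Surgery followed after 4 weeks and the hearts were taken 4 weeks later. No group combined HDAC4-NT with sham surgery, and the labels do not name the species of the fragment.

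Class IIa histone deacetylases have little deacetylase activity of their own. Their amino-terminal part binds MEF2 on DNA, and their carboxy-terminal part recruits the N-CoR and SMRT corepressors with HDAC3, so that MEF2 target genes are kept low. When calcium/calmodulin-dependent kinase II, protein kinase D or related kinases phosphorylate them, 14-3-3 proteins bind and carry them out of the nucleus, and MEF2 is released. In heart muscle this switch is known for its part in the growth response to load. An amino-terminal fragment of HDAC4, which can arise by proteolysis, keeps the MEF2-binding region without the deacetylase domain. These steps act largely on protein location and phosphorylation, which arrays do not measure.

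MEF2 is known to act on genes of its own pathway, Hdac9 among them, so the promoters of these genes were searched for the MEF2 consensus. RefSeq promoter windows of 300 bases (250 before to 50 after the start, assembly GRCm38.p6) were matched by symbol for 8 of the 9 genes, all but Hdac3, giving 14 windows. On either strand, 2 of the 14 windows held the consensus, those of Hdac5 and Mef2a, and across all 32851 windows of the table it occurred in 3.19%. The 12 windows of the other 6 genes, both Hdac9 windows included, held no match. The first of the 3 Mef2c windows is printed as an example without a match, chosen with the calls known, and nothing about the levels of these genes is read from the matches. The Hdac5 window is chr11:102230123-102230422 on the minus strand, the Mef2a window chr7:67372809-67373108 on the minus strand and the Mef2c window chr13:83503784-83504083 on the plus strand. Capitals mark the 10 bases of the consensus, which begins 20 bases before the start in Hdac5 and 2 bases before it in Mef2a.
Hdac5: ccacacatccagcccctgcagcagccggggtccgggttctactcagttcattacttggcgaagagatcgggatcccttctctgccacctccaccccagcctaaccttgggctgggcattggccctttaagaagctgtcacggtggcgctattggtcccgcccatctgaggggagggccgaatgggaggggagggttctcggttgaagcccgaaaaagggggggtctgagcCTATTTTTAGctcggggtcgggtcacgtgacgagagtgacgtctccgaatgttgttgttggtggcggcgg
Mef2a: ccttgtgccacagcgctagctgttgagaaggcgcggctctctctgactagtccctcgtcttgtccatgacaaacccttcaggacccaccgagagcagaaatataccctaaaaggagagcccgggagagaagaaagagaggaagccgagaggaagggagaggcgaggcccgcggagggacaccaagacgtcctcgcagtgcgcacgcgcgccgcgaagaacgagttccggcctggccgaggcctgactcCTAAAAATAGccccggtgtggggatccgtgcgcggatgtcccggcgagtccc
Mef2c: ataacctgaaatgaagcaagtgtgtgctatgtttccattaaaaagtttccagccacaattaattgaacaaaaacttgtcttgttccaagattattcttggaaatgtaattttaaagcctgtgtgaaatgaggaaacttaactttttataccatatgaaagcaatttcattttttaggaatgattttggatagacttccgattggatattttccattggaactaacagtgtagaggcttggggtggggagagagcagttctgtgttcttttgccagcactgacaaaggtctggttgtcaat
The capitals in Hdac5 and Mef2a are matches of letters only, and no binding was measured. The 14 windows ranged from 35.67% GC, in this Mef2c window, to 73.67% GC in a window of Hdac7, beside a median of 52.67% over the table.

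Values below are log2 array signals, so a difference of 1 is a doubling, and levels are compared between hearts and not between genes. A change was called where limma's p, adjusted by Benjamini-Hochberg over the 12597 genes tested, was under 0.05. Each comparison shares arrays with the others, so their values are set side by side and are not independent. The replicates are labelled as separate animals. TAC-luciferase heart 1 stood apart from the other hearts of its group: across genes it correlated at 0.991 to 0.992 with the TAC-HDAC4-NT hearts and at 0.986 to 0.987 with TAC-luciferase hearts 2 and 3, which correlated at 0.994 with each other. The first number of its sample code is 8, and that of TAC-luciferase hearts 2 and 3 is 9, beside 3 or 4 in TAC-HDAC4-NT hearts and 12 in all sham hearts. The labels do not say what the code marks, and since no number is shared between groups, code and group cannot be told apart. The mean of 18 immediate early genes, which respond within minutes to stress or handling, ran from 6.90 to 7.12 in TAC-HDAC4-NT hearts, from 7.53 to 8.15 in TAC-luciferase hearts and from 6.95 to 7.01 in sham-luciferase hearts. The mean of 8 heart muscle markers was 13.12 to 13.13 in TAC-HDAC4-NT hearts, 13.09 to 13.15 in TAC-luciferase hearts and 13.17 to 13.26 in sham-luciferase hearts, so the labelled tissue carried its defining genes. Because whole hearts were measured, fewer cells of a type and less RNA per cell cannot be told apart.

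Against TAC-luciferase hearts, HDAC4-NT left all 9 genes short of the threshold. In that comparison 0 of 9 were called with limma, beside 0.254% of all genes tested, and 2 of 9 (Hdac7 and Mef2c) had an unadjusted p under 0.05, beside 14.3% of all genes. Groups did not overlap for 1 of 9, Mef2c, beside 20.4% of all genes. After TAC with luciferase, all 9 genes had estimates below 0 against sham hearts, and 2 of 9 were called, both lower (Hdac5 and Mef2a), beside 26.1% of all genes called either way and 14.9% called lower. After TAC with HDAC4-NT, Hdac5 and Mef2a were again called lower than in sham hearts and Mef2c higher, 3 of 9 beside 22.8% of all genes (12.3% lower and 10.5% higher). With 9 genes these counts of calls are close to the background and are not a result about the group. The 9 of 9 estimates below 0 for TAC-luciferase against sham stand beside an all-gene median of -0.012 and lower quartile of -0.132. The share of all genes below 0 was not counted, and the 9 of 9 was not tested. An unadjusted p under 0.05 was found for 4 of 9 in each comparison with sham, beside 33.8% of all genes for TAC-HDAC4-NT and 37.2% for TAC-luciferase. TAC and sham hearts did not overlap for 4 of 9 with HDAC4-NT (Hdac4, Hdac5, Mef2a and Mef2c), beside 39.7% of all genes, and for 3 of 9 with luciferase (Hdac4, Hdac5 and Mef2a), beside 37.4%. The median log2 fold change of the 9 genes was 0.07 for TAC-HDAC4-NT against TAC-luciferase, -0.17 for TAC-luciferase against sham and -0.09 for TAC-HDAC4-NT against sham, beside 0.004, -0.012 and -0.012 over all genes tested.

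**Figure D1:**
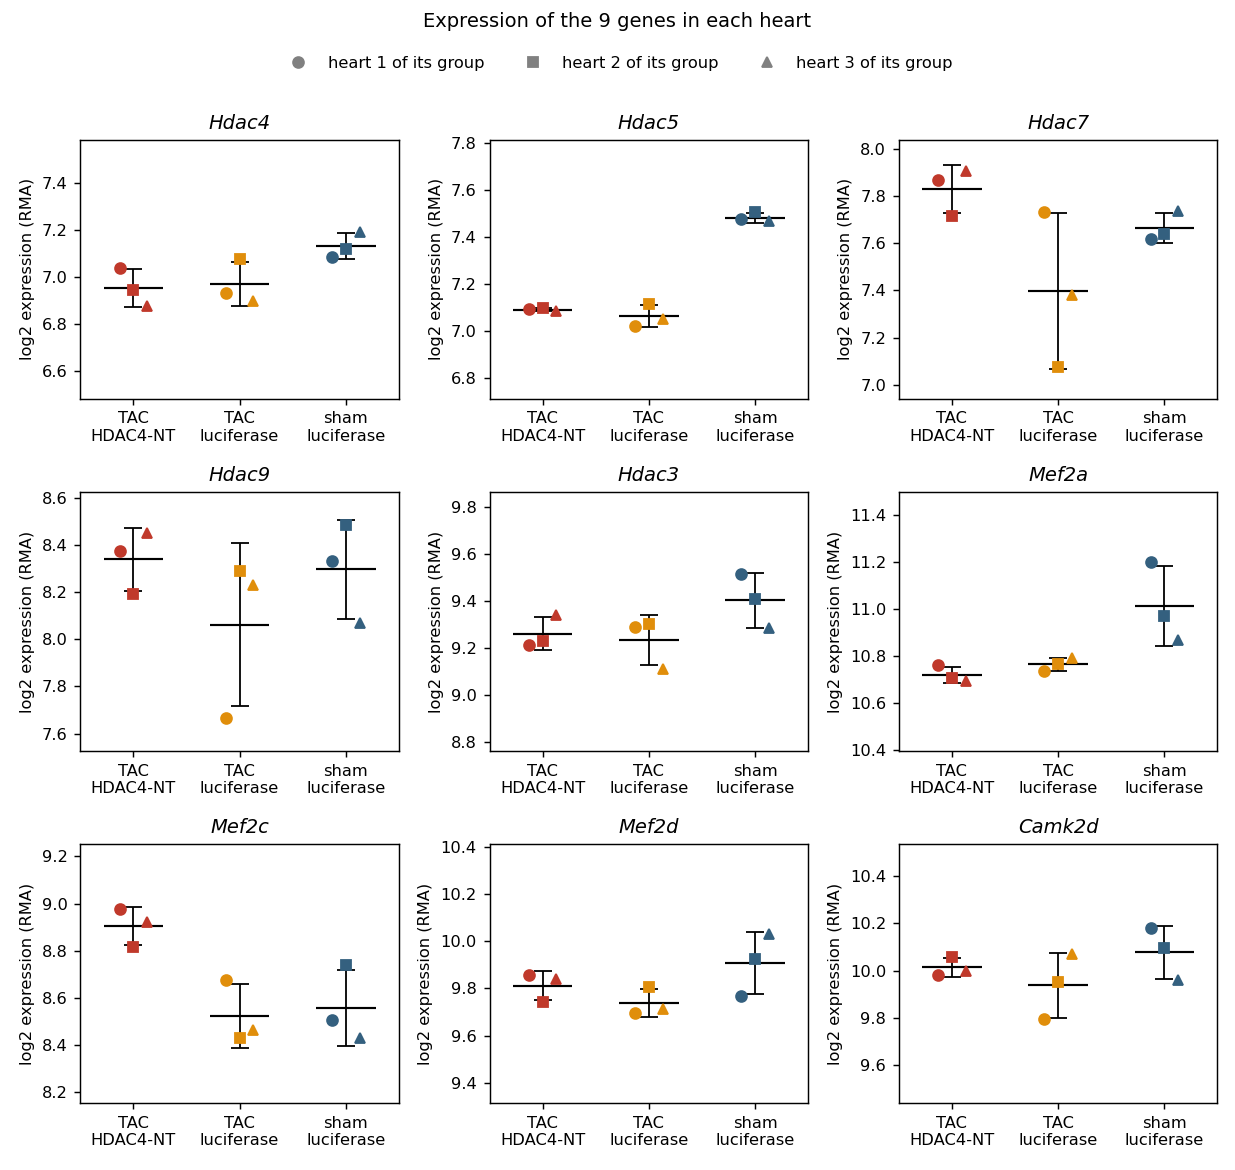
Log2 array signal of the 9 genes in each of 9 hearts, 1 panel per gene, with TAC-HDAC4-NT, TAC-luciferase and sham-luciferase hearts from left to right, points for hearts, horizontal lines for group means and error bars for the SD (n = 3). Hdac5 lies between 7.02 and 7.11 in the 6 TAC hearts and between 7.47 and 7.50 in the sham hearts, and Mef2c is highest in the 3 TAC-HDAC4-NT hearts.

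Hdac4, whose product is the source of the viral fragment, was at 7.04, 6.95 and 6.88 in TAC-HDAC4-NT hearts, at 6.93, 7.08 and 6.90 in TAC-luciferase hearts and at 7.08, 7.12 and 7.19 in sham-luciferase hearts. Every TAC heart lay below every sham heart, TAC-luciferase heart 2 only narrowly, and the TAC groups overlapped each other. The difference between TAC-HDAC4-NT and TAC-luciferase hearts was -0.02 log2 units (95% interval -0.16 to 0.13, adjusted p 0.959). The labels and files do not say which part of the Hdac4 transcript the probes match, so this level is no check of the virus. Against sham hearts the estimates were -0.18 in TAC-HDAC4-NT hearts (adjusted p 0.0815) and -0.16 in TAC-luciferase hearts (adjusted p 0.1002), and neither was called. Without TAC-luciferase heart 2 the TAC-luciferase estimate was -0.22 and passed the threshold (adjusted p 0.0492).

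Hdac5, the closest relative of Hdac4 and a repressor of load-induced growth in mouse hearts, showed the clearest change. It was at 7.09, 7.10 and 7.08 in TAC-HDAC4-NT hearts, at 7.02, 7.11 and 7.05 in TAC-luciferase hearts and at 7.47, 7.50 and 7.47 in sham-luciferase hearts. All 6 TAC hearts were below all sham hearts, with a gap far wider than the spread within any group. Against sham hearts Hdac5 fell 1.31-fold in TAC-HDAC4-NT hearts (difference -0.39, SE 0.04, adjusted p 0.000324) and 1.34-fold in TAC-luciferase hearts (difference -0.42, SE 0.04, adjusted p 0.000211). Between TAC-HDAC4-NT and TAC-luciferase hearts it differed by 0.03 (95% interval -0.07 to 0.13, adjusted p 0.852), and the groups overlapped. The pooled SD within groups was 0.0299, at the 2.38th percentile of all genes tested. Both calls against sham held when any 1 of the 9 hearts was left out.

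Hdac7, the class IIa gene best known from endothelium and lymphocytes, varied most among the TAC-luciferase hearts. It was at 7.87, 7.72 and 7.91 in TAC-HDAC4-NT hearts, at 7.73, 7.07 and 7.38 in TAC-luciferase hearts and at 7.62, 7.64 and 7.74 in sham-luciferase hearts. TAC-luciferase hearts 2 and 3 were below every other heart, and heart 1 lay among the sham and TAC-HDAC4-NT values. The difference of TAC-HDAC4-NT from TAC-luciferase hearts was 0.43 (SE 0.14, 95% interval 0.12 to 0.75, unadjusted p 0.0118, adjusted p 0.197 in limma). Without TAC-luciferase heart 1 it was 0.60 and passed the threshold (adjusted p 0.00961), and with hearts 2 and 3 both left out it was 0.10. Against sham hearts the estimates were 0.16 in TAC-HDAC4-NT hearts (adjusted p 0.466) and -0.27 in TAC-luciferase hearts (adjusted p 0.195). The TAC-luciferase estimate was -0.44 (adjusted p 0.0105) without TAC-luciferase heart 1 and 0.07 with hearts 2 and 3 left out.

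Hdac9, the class IIa gene whose loss in mice sensitises the heart to load, had its lowest value in the TAC-luciferase heart that stood apart. Its levels were 8.38, 8.19 and 8.45 in TAC-HDAC4-NT hearts, 7.66, 8.29 and 8.23 in TAC-luciferase hearts and 8.33, 8.49 and 8.07 in sham-luciferase hearts. The groups overlapped, and no difference was called, with 0.28 for TAC-HDAC4-NT against TAC-luciferase (95% interval -0.10 to 0.65, adjusted p 0.508), 0.04 for TAC-HDAC4-NT against sham (adjusted p 0.899) and -0.24 for TAC-luciferase against sham (adjusted p 0.357). Without TAC-luciferase heart 1 the difference of TAC-HDAC4-NT from TAC-luciferase was 0.08 and that of TAC-luciferase from sham was -0.04. With TAC-luciferase hearts 2 and 3 left out, they were 0.68 and -0.63. No p is given for that fit, since a group of 1 heart has no spread of its own. Hdac9 and Hdac7 had pooled SDs within groups of 0.246 and 0.202, at the 96.4th and 93.6th percentiles of all genes. In TAC-luciferase heart 1, Hdac7 was the highest of its group and Hdac9 the lowest.

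Hdac3, which supplies the deacetylase activity of the corepressor complex, was at 9.21, 9.23 and 9.34 in TAC-HDAC4-NT hearts, at 9.29, 9.30 and 9.11 in TAC-luciferase hearts and at 9.51, 9.41 and 9.28 in sham-luciferase hearts. The groups overlapped. Its differences were 0.03 for TAC-HDAC4-NT against TAC-luciferase (95% interval -0.15 to 0.20, adjusted p 0.937), -0.14 for TAC-HDAC4-NT against sham (adjusted p 0.231) and -0.17 for TAC-luciferase against sham (adjusted p 0.143), none of them called.

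**Figure D2:**
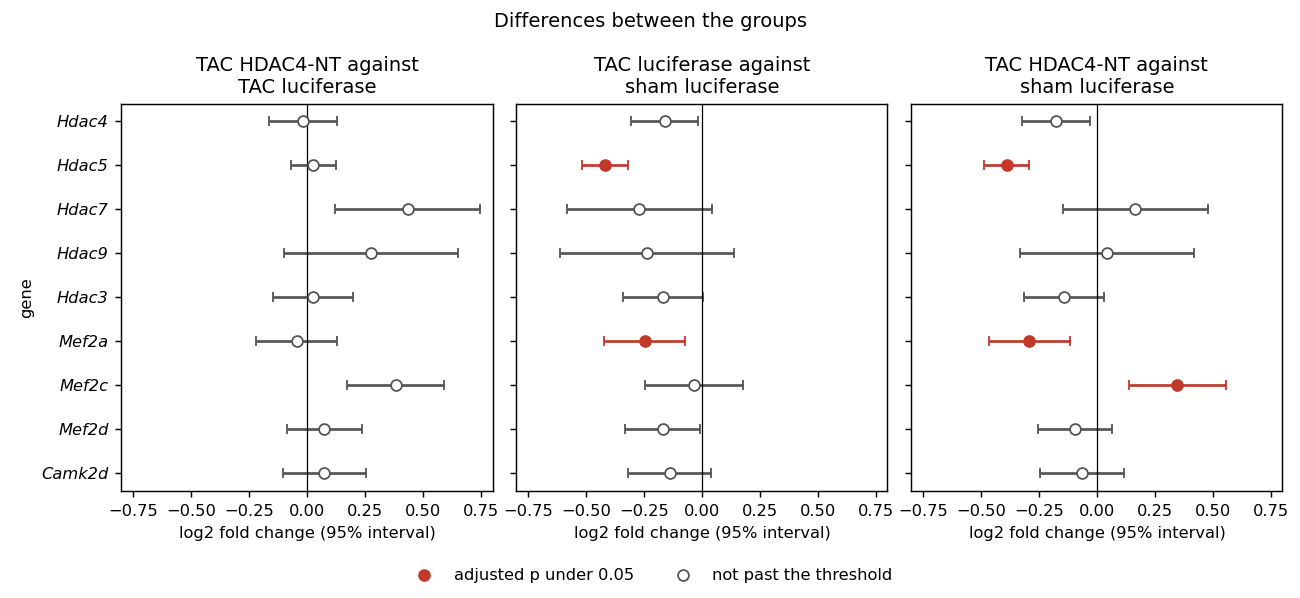
Log2 fold change of the 9 genes in the 3 comparisons between groups, 1 panel each, with 95% intervals from limma and filled red points where the adjusted p was under 0.05. The Hdac5 intervals lie below 0 in both comparisons with sham. All 9 estimates are below 0 for TAC-luciferase against sham, where the median over all genes tested is -0.012.

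Mef2a, which mice need for a normal heart after birth, was at 10.76, 10.71 and 10.69 in TAC-HDAC4-NT hearts, at 10.74, 10.77 and 10.79 in TAC-luciferase hearts and at 11.20, 10.97 and 10.87 in sham-luciferase hearts. All TAC hearts were below all sham hearts, and the range was 0.07 log2 units in TAC-HDAC4-NT hearts, 0.05 in TAC-luciferase hearts and 0.33 in sham-luciferase hearts. Against sham hearts Mef2a fell 1.22-fold in TAC-HDAC4-NT hearts (difference -0.29, SE 0.08, adjusted p 0.0242) and 1.19-fold in TAC-luciferase hearts (difference -0.25, SE 0.08, adjusted p 0.0434). The call with HDAC4-NT was lost when any 1 TAC-HDAC4-NT heart was left out, with adjusted p up to 0.0774. The call with luciferase was lost when any 1 heart other than sham heart 3 was left out (adjusted p up to 0.0966), and the estimate was -0.15 without sham heart 1. Between TAC-HDAC4-NT and TAC-luciferase hearts Mef2a differed by -0.04 (95% interval -0.22 to 0.13, adjusted p 0.870).

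Mef2c, which is needed for heart formation and is also expressed in endothelium, was highest with HDAC4-NT. It was at 8.98, 8.82 and 8.92 in TAC-HDAC4-NT hearts, at 8.68, 8.43 and 8.46 in TAC-luciferase hearts and at 8.51, 8.74 and 8.43 in sham-luciferase hearts. Every TAC-HDAC4-NT heart was above every other heart. Mef2c rose 1.27-fold in TAC-HDAC4-NT hearts against sham (log2 fold change 0.35, SE 0.09, adjusted p 0.0257). Against TAC-luciferase hearts the difference was 0.38 (SE 0.09, 95% interval 0.17 to 0.59, unadjusted p 0.00261, adjusted p 0.103 in limma), which was not called. Without TAC-luciferase heart 1 that difference was 0.46 (adjusted p 0.0240), and with hearts 2 and 3 left out it was 0.23. The call against sham was lost without TAC-HDAC4-NT heart 1 or 3 or without sham heart 1 or 3, with adjusted p up to 0.0936. TAC-luciferase and sham-luciferase hearts overlapped, with a difference of -0.03 (adjusted p 0.841).

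Because Mef2c is also expressed in vessels, and Hdac7 is known from endothelium, the vessel markers are given beside them. The mean of 10 endothelial markers was 9.20 to 9.29 in TAC-HDAC4-NT hearts, 9.05 to 9.18 in TAC-luciferase hearts and 9.12 to 9.18 in sham-luciferase hearts. The mean of the 6 smooth muscle and pericyte markers tested (of 7 listed) was 8.74 to 8.79 in TAC-HDAC4-NT hearts, 8.52 to 8.61 in TAC-luciferase hearts and 8.48 to 8.55 in sham-luciferase hearts. In both lists the TAC-HDAC4-NT range lay above the other 2 ranges. The part of these markers in the Mef2c and Hdac7 results was not tested. Within the endothelial list 7 of 10 genes had estimates above 0 for TAC-HDAC4-NT against TAC-luciferase. Of the 10, 0 were called in limma and 5 had an unadjusted p under 0.05, beside 14.3% of all genes. The smallest p belonged to Tie1 (0.28, adjusted p 0.0568) and Flt1 (-0.36, adjusted p 0.0760), both receptors of endothelium. Of the 6 smooth muscle and pericyte markers 0 were called in that comparison and 2 had an unadjusted p under 0.05, beside the same 14.3%. They were Pdgfrb, a receptor of pericytes, at 0.45 (adjusted p 0.0519) and Cspg4, a proteoglycan of pericytes, at 0.43 (adjusted p 0.0532). In TAC-HDAC4-NT against sham, where Mef2c was called, 1 of 10 endothelial markers was called higher (Cdh5, a junction cadherin, at 0.31, adjusted p 0.00829) and 1 lower (Flt1 at -0.28, adjusted p 0.0275), beside 10.5% and 12.3% of all genes. Of the 6 smooth muscle and pericyte markers, 2 were called higher there (Cspg4 at 0.82, adjusted p 8.9e-05, and Pdgfrb at 0.63, adjusted p 0.000379) and 1 lower (Myh11, a smooth muscle myosin, at -0.24, adjusted p 0.0443). With any 1 heart left out the calls of Cspg4, Pdgfrb and Cdh5 held. That of Flt1 was lost without TAC-HDAC4-NT heart 1 or 3 or sham heart 1 or 3 (adjusted p up to 0.0991), and that of Myh11 in 6 of 9 such fits, those without any 1 TAC-HDAC4-NT heart, TAC-luciferase heart 3 or sham heart 1 or 3 (adjusted p up to 0.158). In TAC-luciferase against sham, 1 of 10 endothelial markers was called higher (Cdh5 at 0.23, adjusted p 0.0295), beside 11.2% of all genes. There 2 were called lower (Tie1 at -0.22, adjusted p 0.0129, and Kdr at -0.68, adjusted p 0.0144), beside 14.9%. Each of these endothelial calls against sham was lost with some single heart left out.

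Mef2d, the MEF2 gene that in mice is needed for the full growth response to load, was at 9.86, 9.74 and 9.84 in TAC-HDAC4-NT hearts, at 9.69, 9.81 and 9.71 in TAC-luciferase hearts and at 9.77, 9.92 and 10.03 in sham-luciferase hearts. The groups overlapped. Estimates were 0.07 for TAC-HDAC4-NT against TAC-luciferase (95% interval -0.09 to 0.24, adjusted p 0.732), -0.09 for TAC-HDAC4-NT against sham (adjusted p 0.412) and -0.17 for TAC-luciferase against sham (adjusted p 0.117). The last reached -0.24 and adjusted p 0.0339 without sham heart 1.

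Camk2d, the main cardiac isoform of calcium/calmodulin-dependent kinase II, was at 9.98, 10.06 and 9.998 in TAC-HDAC4-NT hearts, at 9.79, 9.95 and 10.07 in TAC-luciferase hearts and at 10.18, 10.09 and 9.96 in sham-luciferase hearts, with overlapping groups. It differed by 0.08 between TAC-HDAC4-NT and TAC-luciferase (95% interval -0.10 to 0.25, adjusted p 0.764), by -0.06 between TAC-HDAC4-NT and sham (adjusted p 0.642) and by -0.14 between TAC-luciferase and sham (adjusted p 0.243).

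**Figure D3:**
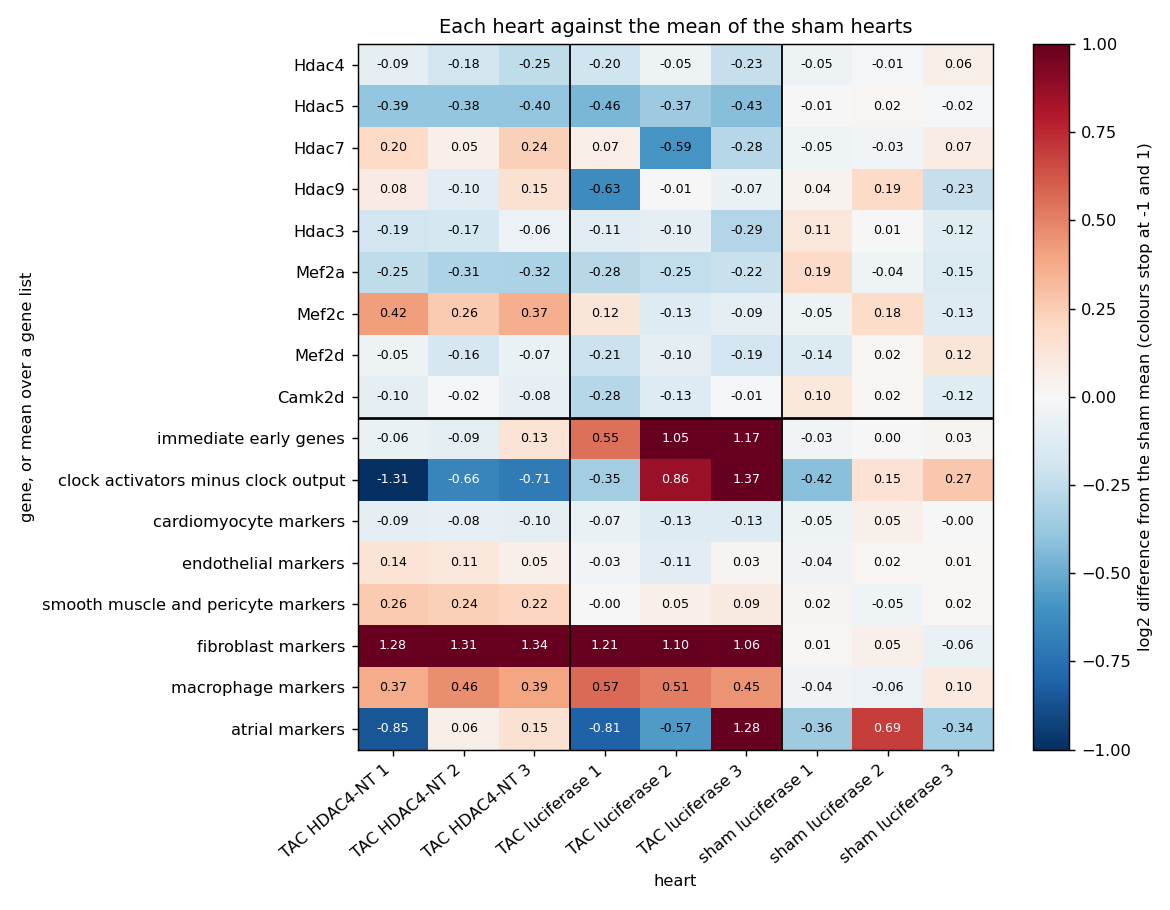
Heat map of each heart (columns, TAC-HDAC4-NT, TAC-luciferase and sham-luciferase from left to right) minus the mean of the 3 sham hearts, in log2 units, for the 9 genes and, below the line, for the means of gene and marker lists. Hdac5 and Mef2a are below 0 in all 6 TAC hearts, and Hdac7 differs in sign among the 3 TAC-luciferase hearts.

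Among the 9 genes, levels varied together only in part. Over the 9 hearts, deviations from group means ran opposite for Hdac5 and Hdac7 (r = -0.905), for Mef2a and Mef2d (r = -0.760) and for Hdac7 and Hdac9 (r = -0.693), and ran alike for Hdac5 and Hdac9 (r = 0.740). These r were picked as the largest in size among all pairs of the 9 genes. They describe the 9 hearts only, since all genes come from the same arrays. Hdac5 and Hdac7 both varied most within the TAC-luciferase group (SD 0.047 and 0.330), so their r leans on those 3 hearts. By Pearson r over the 9 arrays, the genes with levels most like Hdac4 were Thnsl2 (0.976), Coq10a (0.963) and Rundc1 (0.962). Thnsl2 ran only from 5.62 to 5.73, around the filter's cutoff of 5.66, so its r rests on a narrow range at low signal. Hdac5 was most like Galm (0.998), Rab9 (0.993) and Fah (0.992), Mef2a most like Ltbp1 (0.984), Ret (0.982) and Mpped2 (0.973), and Mef2c most like Pcdh17 (0.982), Car7 (0.980) and Plekhh2 (0.974). Ret was also at low signal, from 5.76 to 6.31. All these were picked as the highest r among all genes tested, over 9 arrays only. For the 3 genes most like Mef2a the Spearman rho was lower, at 0.817, 0.800 and 0.783 in the same order. Sham heart 1 was the highest of the 9 hearts for Mef2a and for each of them. For the 3 genes most like Hdac5, the r of deviations from group means was 0.849, 0.727 and 0.884 in the same order.

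The other genes of the pathway were taken by list. Of 5 other histone deacetylases tested (of 6 listed), 0 were called in any comparison with limma. The numbers with an unadjusted p under 0.05 were 0 for TAC-HDAC4-NT against TAC-luciferase, 1 for TAC-HDAC4-NT against sham and 2 for TAC-luciferase against sham. The shares of all genes at that level were 14.3%, 33.8% and 37.2%, in the same order. The smallest p in TAC-HDAC4-NT against TAC-luciferase was that of Hdac6, a cytoplasmic tubulin deacetylase, at -0.12 (adjusted p 0.367). Of 12 partners of the corepressor complex, 0 were called in TAC-HDAC4-NT against TAC-luciferase (2 at an unadjusted p under 0.05, beside 14.3% of all genes), where Ctbp2, a corepressor, was at -0.22 (adjusted p 0.0801). In TAC-luciferase against sham, 2 of 12 rose and 1 fell, beside 11.2% and 14.9% of all genes, which is near the background. Rfxank, a protein with ankyrin repeats that binds class IIa enzymes, rose by 0.41 and Ctbp2 by 0.16, while Sin3a, the scaffold of another deacetylase complex, fell by 0.22. In TAC-HDAC4-NT against sham, Tbl1xr1, a subunit of the N-CoR and SMRT complex, was the 1 of 12 called, higher by 0.23, beside 22.8% of all genes called either way. All 4 calls were lost with some single heart left out. The highest adjusted p with 1 heart left out was 0.0587 for Rfxank, 0.0537 for Sin3a (each lost without TAC-luciferase heart 2 or sham heart 1), 0.0814 for Ctbp2 (lost without TAC-luciferase heart 1 or 2 or sham heart 1 or 2) and 0.146 for Tbl1xr1 (lost without any heart other than TAC-luciferase hearts 1 and 3).

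Kinases that act on class IIa enzymes were listed next. Of 20 tested, 0 were called in TAC-HDAC4-NT against TAC-luciferase, and 4 had an unadjusted p under 0.05, beside 14.3% of all genes. The smallest p were those of Sik3 (-0.26, adjusted p 0.0568) and Camk2g (0.26, adjusted p 0.111). Grk5, a G-protein receptor kinase that enters the nucleus and phosphorylates Hdac5, was at 8.52, 8.28 and 8.44 in TAC-HDAC4-NT hearts, at 8.21, 8.24 and 8.61 in TAC-luciferase hearts and at 7.41, 7.50 and 7.41 in sham-luciferase hearts, so that all TAC hearts were above all sham hearts. Grk5 rose by 0.98 with HDAC4-NT (adjusted p 0.000279) and by 0.92 with luciferase (adjusted p 0.000358), each against sham. Grk5 was the 1 of 20 that rose in each comparison with sham. In TAC-HDAC4-NT against sham 5 fell (Sik3, Camk2a, Camk2b, Prkd1 and Prkaca), and in TAC-luciferase against sham 4 fell (the same genes without Prkaca). The 6 of 20 called with HDAC4-NT stand beside 22.8% of all genes and the 5 of 20 with luciferase beside 26.1%, so these counts are near the background and are not a result about the kinases as a list. Sik3, a salt-inducible kinase, fell by 0.51 with HDAC4-NT and by 0.25 with luciferase, and Camk2a, a kinase subunit of the same family as Camk2d, fell by 0.44 with HDAC4-NT and by 0.43 with luciferase, each against sham. Sik3 had the lowest values in TAC-HDAC4-NT hearts (8.05, 8.05 and 8.14), intermediate values in TAC-luciferase hearts (8.38, 8.32 and 8.33) and the highest in sham hearts (8.58, 8.63 and 8.57), with no overlap between groups.

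The 14-3-3 proteins hold phosphorylated class IIa enzymes in the cytoplasm. Of 12 tested genes of 14-3-3 proteins (6 genes), phosphatase subunits and nuclear export, 0 were called in limma in TAC-HDAC4-NT against TAC-luciferase (2 at an unadjusted p under 0.05, beside 14.3% of all genes) or against sham (1 at that level, beside 33.8%). Ppp1r12a, a subunit of myosin phosphatase, was the 1 of 12 called in TAC-luciferase against sham, beside 26.1% of all genes, and rose by 0.21. This call was lost in 6 of 9 fits with 1 heart left out, those without TAC-HDAC4-NT heart 1 or 2, TAC-luciferase heart 1 or 3 or sham heart 1 or 3 (adjusted p up to 0.123). Xpo1, the nuclear exporter, had the smallest p in TAC-HDAC4-NT against TAC-luciferase, at 0.29 (adjusted p 0.240). Of 12 MEF2 cofactors tested, 0 were called in limma in TAC-HDAC4-NT against TAC-luciferase and 4 had an unadjusted p under 0.05, beside 14.3% of all genes. Mapk14, the p38 kinase that activates MEF2, was at 8.22, 8.11 and 8.06 in TAC-HDAC4-NT hearts, at 8.14, 7.72 and 7.82 in TAC-luciferase hearts and at 8.75, 8.56 and 8.61 in sham-luciferase hearts. It fell by 0.51 with HDAC4-NT and by 0.75 with luciferase, each against sham. Gata4, a cardiac transcription factor, rose by 0.25 in TAC-HDAC4-NT against sham, a call lost without TAC-HDAC4-NT heart 1 or 2 or sham heart 1 or 3 (adjusted p up to 0.111).

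Of 20 genes described as MEF2 targets, 0 were called in limma in TAC-HDAC4-NT against TAC-luciferase and 8 had an unadjusted p under 0.05, beside 14.3% of all genes. Their median was -0.02 beside 0.004 over all genes. In TAC-HDAC4-NT against sham 6 rose and 4 fell (Slc2a4, Ckm, Hrc and Ppargc1a), beside 10.5% and 12.3% of all genes. In TAC-luciferase against sham 8 rose and 5 fell (Slc2a4, Ckm, Hrc, Lmod3 and Myh6), beside 11.2% and 14.9%. Nppa, a natriuretic peptide gene and marker of load, rose by 2.20 with HDAC4-NT and by 2.04 with luciferase, and Xirp2, an actin-binding muscle protein, by 1.58 with HDAC4-NT and 1.32 with luciferase. Des, which encodes desmin, rose by 0.36 with HDAC4-NT and by 0.34 with luciferase. Slc2a4, the insulin-dependent glucose transporter, fell by 0.51 with HDAC4-NT and by 0.69 with luciferase, each against sham. In TAC-HDAC4-NT against TAC-luciferase the smallest p were those of Klf2, a transcription factor, at -0.76 (adjusted p 0.0860), and Lmod3, an actin nucleator, at 0.63 (adjusted p 0.0868). Klf2 was at 6.75, 6.47 and 6.83 in TAC-HDAC4-NT hearts, at 7.01, 7.60 and 7.73 in TAC-luciferase hearts and at 6.64, 6.82 and 6.85 in sham-luciferase hearts, with TAC-luciferase hearts above all others. Nr4a1 and Sik1, named after their values were seen, had estimates of -2.58 (adjusted p 0.125) and -1.67 (adjusted p 0.138) in the same comparison.

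Jun, Klf2 and Klf6, on the target list, are also on the list of immediate early genes, a class that differed most in the TAC-luciferase hearts. Nr4a1, which the immediate early list leaves out, had the same pattern. It was called higher in TAC-luciferase against sham, by 2.57 (adjusted p 0.0220 in limma), and was at -0.01 in TAC-HDAC4-NT against sham. Of 18 immediate early genes tested, 3 were called lower in TAC-HDAC4-NT against TAC-luciferase, beside 0.111% of all genes, and all 18 had estimates below 0. Atf3, a stress transcription factor, was at 5.87, 5.93 and 6.41 in TAC-HDAC4-NT hearts, at 8.03, 8.98 and 8.76 in TAC-luciferase hearts and at 6.15, 6.06 and 6.41 in sham-luciferase hearts. It fell by 2.52, Btg2, an antiproliferative gene, by 1.24 and Klf4 by 0.53. Atf3's call was lost without TAC-HDAC4-NT heart 1 or 2 (adjusted p up to 0.0622), Klf4's without any 1 of 7 hearts (all but TAC-luciferase heart 1 and sham heart 1, adjusted p up to 0.205), and Btg2's held with any 1 heart left out. In TAC-HDAC4-NT against sham 1 of 18 rose (Ier3, by 0.65), beside 10.5% of all genes, and in TAC-luciferase against sham 14 of 18, beside 11.2%. Clock genes also differed between groups, and the mean of 3 activators minus the mean of 6 output genes ran from -1.70 to -1.05 in TAC-HDAC4-NT hearts, from -0.74 to 0.98 in TAC-luciferase hearts and from -0.81 to -0.12 in sham hearts. Of these genes 0 were called in limma in TAC-HDAC4-NT against TAC-luciferase, though all 3 activators and all 6 output genes had an unadjusted p under 0.05, beside 14.3% of all genes. Arntl was at -0.78 (adjusted p 0.1001) and Dbp at 2.10 (adjusted p 0.0877) there. Arntl, a clock activator, fell by 0.81 in TAC-HDAC4-NT against sham and Nr1d2, a clock repressor, by 0.75 in TAC-luciferase against sham. Arntl's call was lost without TAC-HDAC4-NT heart 1 or sham heart 3 (adjusted p up to 0.0565) and Nr1d2's without TAC-luciferase heart 2 or 3 or sham heart 1 or 2 (adjusted p up to 0.0909). In TAC-luciferase hearts 1, 2 and 3 the immediate early mean was 7.53, 8.03 and 8.15, and the clock difference was -0.74, 0.47 and 0.98. The heart that stood apart was thus the lowest of its group in both. The part of either group of genes in the results of Hdac7, Hdac9 and Mef2c was not tested.

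**Figure D4:**
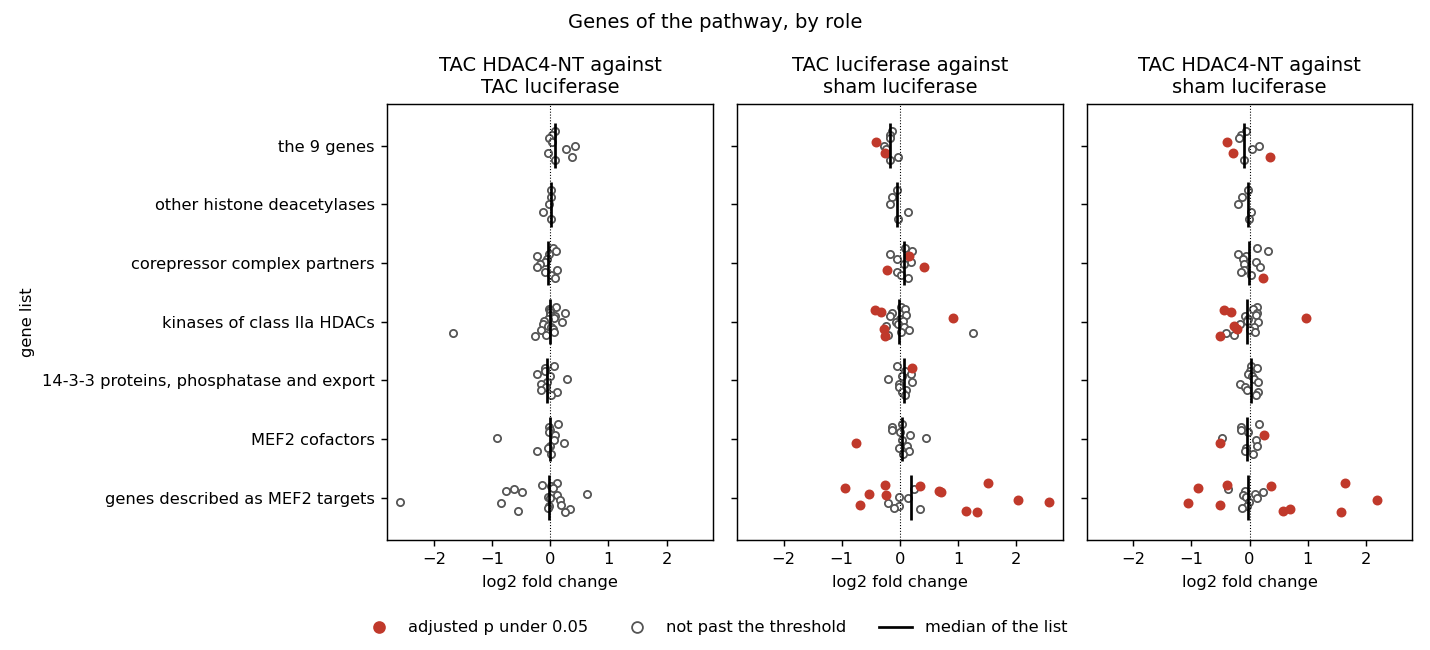
Log2 fold changes of the tested genes of each pathway list in the 3 comparisons, 1 point per gene and 1 panel per comparison, with called genes in red and the list median as a black line. Kinases and MEF2 targets have called genes on both sides of 0 in both comparisons with sham, and no gene of these lists is called in TAC-HDAC4-NT against TAC-luciferase.

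Markers of other cell types differed between TAC and sham hearts. Fibroblast markers had means of 9.18 to 9.24 in TAC-HDAC4-NT hearts, 8.97 to 9.12 in TAC-luciferase hearts and 7.84 to 7.95 in sham hearts, with 6 of 8 called higher in each TAC group against sham, beside 10.5% of all genes with HDAC4-NT and 11.2% with luciferase. Macrophage markers had means of 7.68 to 7.77 in TAC-HDAC4-NT hearts, 7.75 to 7.87 in TAC-luciferase hearts and 7.25 to 7.40 in sham hearts. Heart muscle markers had 1 of 8 called lower in TAC-HDAC4-NT against sham and 2 of 8 in TAC-luciferase against sham, beside 12.3% and 14.9% of all genes called lower. In each of these comparisons 7 of 8 had estimates below 0, and the share of all genes below 0 was not counted. Their mean was lower in every TAC heart (at most 13.15) than in every sham heart (at least 13.17). These shifts move with the lower Hdac5 and Mef2a of the TAC hearts, and their part in those results was not tested. Of 7 lymphocyte markers only Cd3e and Cd4 passed the filter, and 0 were called in limma, with 0 at an unadjusted p under 0.05. The mean of 4 atrial genes ran from 5.94 to 6.94 in TAC-HDAC4-NT hearts, from 5.98 to 8.07 in TAC-luciferase hearts and from 6.43 to 7.49 in sham hearts, and the groups overlapped.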

How the data were processed

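Trizol RNA of the hearts was hybridised as biotinylated cRNA, per the labels' protocols. The log2 values deposited by the authors came from RMA, per the submitters' processing notes. The sources used here give no version of it and no genome build. Sorted values were identical between the 9 arrays, which is what quantile normalization produces. RMA compresses low signals, so differences of weak genes are understated, and precision is limited by the number of arrays, with no detection p deposited.

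The annotation gave 1 symbol to 20239 of 21225 probe sets, and 986 are unnamed here. Gene IDs of the 20239 were all found in RefSeq's GRCm38.p6 gene table. A gene was tested where 3 or more arrays exceeded the table's 40th percentile, leaving 12597 and dropping 7642. limma 3.58.1 (R 4.3.3) fitted 1 model to 3 groups, leaving 6 residual degrees of freedom and 3.23 from the prior. Adjustment was over all genes tested. The main fit did not treat hearts with the same replicate number as paired. Of 9 same-numbered pairs, 2 had deviations correlated above 0.1 (range -0.123 to 0.199). Differently numbered pairs ran from -0.250 to 0.221. With 3 hearts per group, whose deviations add up to 0, this check can neither show nor exclude pairing.

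The genes described, the lists and the tests were chosen with earlier results of these data known. From each list the text names genes from among the 4 called with the smallest p per comparison (from among 2 where none was called). Not all genes within this rule are named in the results, and Acta1, Junb, Hand2 and Srf are among those left out. The text also names the 3 genes most like Hdac4 and like each called member. Nr4a1, Sik1, Jun, Klf6 and members of counts up to 5 outside this rule were named after their values were seen. Alternatives were no filter, a 60th percentile filter, a trended robust prior, cyclic loess, array weights, a fit to the 2 compared groups alone, blocks for replicate number and for sample code, and each heart left out. Leaving out TAC-luciferase hearts 2 and 3 together was added after seeing the data. On simulated data for HDAC4-NT against luciferase after TAC, with 12597 genes, the fit recovered 52% of genes changed 1.25-fold and 84% changed 1.5-fold, 0 in the wrong direction. The simulated noise was independent and of equal spread in all groups, with 50 genes planted at each fold size up to 3-fold. It leaves out the uneven TAC-luciferase hearts, so these shares do not say how many changed genes the real comparison would recover. Figures used matplotlib 3.10.9.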

Additional observations from a re-analysis of the deposited data

How the results depend on the processing

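For TAC-HDAC4-NT against TAC-luciferase the number of genes called, 32 as reported, depended on the setting. It was 10 without a filter, 103 with the 60th percentile filter, 75 with a trended robust prior, 827 with array weights, 106 with the replicate number as a block and 177 with the sample code as a random block. The fitted correlation within sample codes was -0.113, and a negative value narrows the standard errors of differences between groups. With only the arrays of the groups compared it was 0 in limma, where 1868 genes had an unadjusted p under 0.05. With 1 heart left out it ran from 1, when TAC-HDAC4-NT heart 1 or 2 was missing, up to 697, when TAC-luciferase heart 1 was. It was 10 with TAC-luciferase hearts 2 and 3 missing, where the lone heart was assumed to vary like the others. The causes were not tested, and some of these fits also hold fewer arrays. TAC-luciferase against sham had 1926 calls with those hearts missing and 3283 as reported. Against sham, the calls of Hdac5 held in all 18 settings in both TAC groups, that of Mef2a in 15 of 18 with HDAC4-NT and 4 of 18 with luciferase, and that of Mef2c with HDAC4-NT in 14 of 18. Array weights put Hdac7 at 0.55 and Mef2c at 0.44 in TAC-HDAC4-NT against TAC-luciferase, both called.

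Some estimates changed sign. With single hearts left out, TAC-HDAC4-NT against TAC-luciferase ran from -0.0582 to 0.0376 for Hdac4, -0.0361 to 0.05998 for Hdac3 and -0.0127 to 0.0482 for Hdac8. TAC-HDAC4-NT against sham ran from -0.0710 to 0.137 for Hdac9, and TAC-luciferase against sham from -0.111 to 0.0556 for Mef2c, -0.0184 to 0.101 for Clock and -0.0774 to 0.573 for Npas2. With TAC-luciferase hearts 2 and 3 missing, TAC-HDAC4-NT against TAC-luciferase was 0.0221 for Hdac4 and -0.0298 for Hdac3, and TAC-luciferase against sham was 0.0680 for Hdac7 (-0.27 as reported), 0.119 for Mef2c, -0.0257 for Clock and -0.508 for Npas2 (0.21 with all hearts). For TAC-luciferase against sham cyclic loess put Mef2c at 0.00246, and for TAC-HDAC4-NT against TAC-luciferase array weights put Hdac8 at -0.00258.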
